A study of Macaca nemestrina with 15 samples.

Results

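Red blood cell genes were followed in RNA from the peripheral blood mononuclear cells (PBMCs) of macaques given islatravir (ISL), a nucleoside inhibitor of HIV reverse transcriptase. The members are 5 of the 28865 features in the deposited count table: *ALAS2*, *SLC4A1*, *AHSP* and *CA1*, taken by gene name, and ENSMNEG00000042383, an abundant feature with no gene name in the table. They were chosen from measured values: the unnamed feature was included because its level followed the named markers, so its likeness to them is given as a description. The animals were 5 female pig-tailed macaques (*Macaca nemestrina*), labelled Z15228, Z13076, Z15339, Z15303 and Z15408. Each gave 1 library before treatment (pre-treatment), 1 labelled week 12 and 1 labelled week 18. This makes 5 libraries per time point and 15 in all. Per the study, week 12 was during oral ISL at 30 mg/kg by gavage once a week, and week 18 was after dosing had stopped. Dates in the library names put these samples 56 or 57 days and 84 days after the first, which differs from the labels. All 5 animals were treated, with no untreated animals among the 15 libraries, so time and treatment cannot be told apart. Per the methods of the study, PBMCs were separated from blood in density tubes and then passed through a red blood cell lysis step, so red cell RNA in these libraries is what remained after both.

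Red blood cells arise in the bone marrow from erythroblasts, which load themselves with hemoglobin and then lose their nucleus. The young cells released into blood, the reticulocytes, still carry messenger RNA for hemoglobin, heme synthesis and the membrane skeleton, and lose it as they mature. In mononuclear cell preparations such RNA is known as carry-over from red cells and their precursors. In a bulk library, fewer red cells and less RNA per cell cannot be told apart.

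The libraries held 5610597 to 10379572 gene counts (median 8871860). Markers of T cells, NK cells, monocytes and B cells were present in every library, as the PBMC label implies, and no pair of libraries was identical. The pre-treatment library of Z15228 and the week 18 library of Z13076 had the highest counts of *ALAS2*, *SLC4A1* and the unnamed feature. The results that rest on these libraries are given with and without them. For *AHSP* and *CA1* they were not both the highest. Z15339, Z15303 and Z15408 share their sampling dates in the library names, while the other animals each have dates of their own.

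The 5 members together took between 0.158% and 5.00% of a library's gene counts, nearly all of it from the unnamed feature. Before treatment the share was 5.00% in Z15228, 1.22% in Z13076, 0.493% in Z15339, 1.00% in Z15303 and 0.323% in Z15408. At week 12 it was 1.79%, 0.760%, 0.819%, 1.11% and 0.158% in the same order. At week 18 it was 0.930%, 3.68%, 0.261%, 0.291% and 0.224%. Z15408 had the lowest share at each time point, the highest share moved from Z15228 to Z13076 at week 18, and the ranges of the 3 time points overlapped. The medians were 1.00%, 0.819% and 0.291%, beside means of 1.61% ± 1.93, 0.927% ± 0.594 and 1.08% ± 1.48 (SD, n = 5 animals). With 1 animal left out at a time the week 18 median ran from 0.276% to 0.611%, and those of pre-treatment and week 12 from 0.748% to 1.11% and from 0.790% to 0.964%. Without the unnamed feature, the 4 named genes gave 45.9 to 763 CPM (counts-per-million, relative to all gene counts) before treatment, 43.6 to 362 at week 12 and 47.6 to 628 at week 18.

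**Figure D1:**
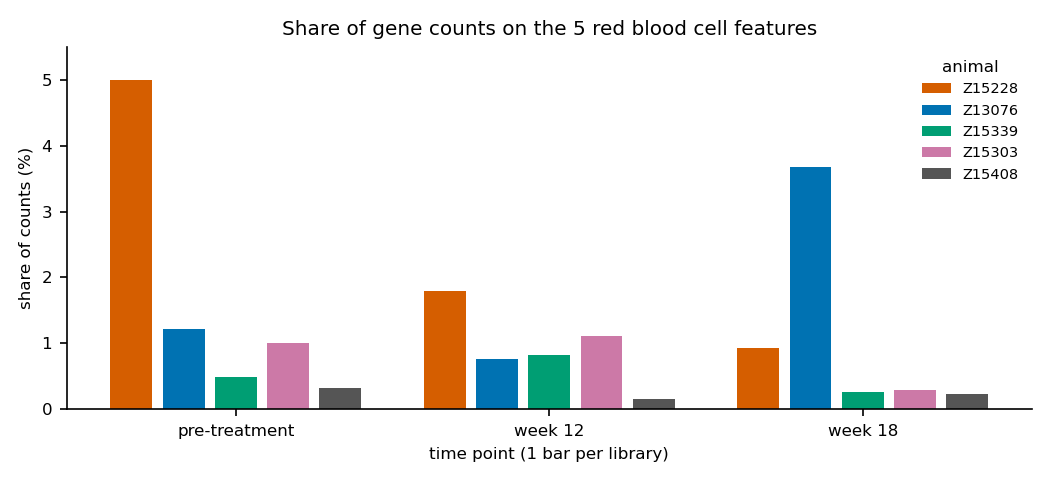
Share of gene counts (percent, y axis) taken by the 5 members summed, at each time point (x axis), with a bar for each library, coloured by animal. Nearly all of it comes from the unnamed feature. The pre-treatment library of Z15228 (5.00%) and the week 18 library of Z13076 (3.68%) lie above all others, and no other library exceeded 1.79%.

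*ALAS2* encodes the erythroid form of 5-aminolevulinate synthase, the enzyme that begins heme synthesis. In CPM, here and below scaled by edgeR's TMM library factors, its pre-treatment level was 765 in Z15228, 123 in Z13076, 34.7 in Z15339, 241 in Z15303 and 58.4 in Z15408. At week 12 the levels were 331, 72.9, 66.7, 225 and 36.2 CPM in that order. At week 18 they were 144, 620.2, 36.8, 66.7 and 35.5 CPM. The groups overlapped in full: Z15339 and Z15408 stayed at or below 66.7 CPM throughout, while Z15228 was the highest animal at the earlier time points and Z13076 at week 18. The highest library lay 22.0-fold above the lowest. Within animals, *ALAS2* was lower at week 12 than before treatment in 4 of 5, with a mean difference in log2 CPM of -0.36 ± 0.83 (SD, n = 5). At week 18 it was below pre-treatment in 3 of 5, with a mean difference of -0.51 ± 1.86. The 3 animals that share sampling dates averaged 0.05 at week 12 against pre-treatment, and the other animals averaged -0.98; of the former only Z15339 was higher (0.94), with Z15303 at -0.10 and Z15408 at -0.69. By the same split, week 18 against pre-treatment averaged -0.83 and -0.04. The latter averages Z15228 at -2.41 and Z13076 at 2.33, which moved in opposite directions.

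*SLC4A1*, which encodes band 3, the chloride and bicarbonate exchanger of the red cell membrane, was measured at few counts. Before treatment it had 76 counts in Z15228, 17 in Z13076, 3 in Z15339, 25 in Z15303 and 12 in Z15408. At week 12 it had 57, 4, 21, 31 and 7 counts in the same order. At week 18 it had 26, 82, 7, 7 and 11 counts. The spread was from 0.358 CPM in the pre-treatment library of Z15339 to 10.01 CPM in the week 18 library of Z13076, a 27.9-fold range, and the time points overlapped. Z13076 held both a low week 12 library, with 4 counts (exact Poisson 95% interval 1.09 to 10.2), and the highest week 18 library, with 82 counts (65.2 to 102). These intervals cover counting error only. The paired differences in log2 CPM averaged 0.07 ± 1.47 at week 12 and 0.14 ± 1.41 at week 18 against pre-treatment (SD, n = 5), each with 2 animals higher and 3 lower. Over the 3 same-date animals and the other animals they averaged 0.77 and -0.99 at week 12, and -0.13 and 0.55 at week 18, with opposite signs at both times. The 0.55 averages Z15228 at -1.16 and Z13076 at 2.25.

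*CA1* encodes carbonic anhydrase 1, an abundant enzyme of the red cell cytosol that interconverts carbon dioxide and bicarbonate. Its pre-treatment levels were 39.5, 20.7, 9.07, 10.9 and 7.42 CPM in Z15228, Z13076, Z15339, Z15303 and Z15408. At week 12 they were 17.3, 25.7, 14.8, 9.41 and 6.22 CPM. At week 18 they were 9.58, 12.9, 12.3, 6.74 and 10.2 CPM. *CA1* had the narrowest range of the tested members, 6.36-fold. In Z13076 at week 18, where *ALAS2*, *SLC4A1* and the unnamed feature were at their highest for that time point, *CA1* was also the highest of its time point at 12.9 CPM, but within 1 CPM of Z15339 and below the 20.7 and 25.7 CPM of the earlier libraries of Z13076. The paired differences against pre-treatment averaged -0.13 ± 0.70 at week 12 and -0.50 ± 1.02 at week 18 on the log2 scale, each lower in 3 of 5 animals. At week 18 the 3 same-date animals averaged 0.07 and the other animals -1.34; at week 12 they averaged 0.08 and -0.43.

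*AHSP* encodes the alpha hemoglobin stabilizing protein, a chaperone that binds free alpha globin in erythroblasts. It gave 15, 5, 1, 19 and 1 counts before treatment in Z15228, Z13076, Z15339, Z15303 and Z15408. At week 12 it gave 10, 3, 2, 9 and 0 counts, and at week 18 it gave 7, 4, 2, 9 and 0. Z15303 held the most *AHSP* for its depth at every time point, followed by Z15228 and Z13076, and the remaining animals had at most 2 counts. The count of 0 in Z15408 allows up to 0.304 CPM of all gene counts at week 12 and up to 0.337 at week 18. *AHSP* was too low for the filter on low counts and entered no test; its paired differences against pre-treatment averaged -0.28 ± 0.37 at week 12 and -0.27 ± 0.41 at week 18 on a log2 scale with a prior count of 2, which understates changes at these counts.

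ENSMNEG00000042383, the unnamed feature, took 4.92% of the counts of the pre-treatment library of Z15228 (exact binomial 95% interval 4.91 to 4.93), 1.21% in Z13076, 0.488% in Z15339, 0.978% in Z15303 and 0.316% in Z15408. At week 12 its share was 1.75%, 0.750%, 0.811%, 1.09% and 0.154% (0.151 to 0.156) in the same order. At week 18 its share was 0.914%, 3.61%, 0.256%, 0.284% and 0.219%. It had the highest count of all features in 2 libraries, the pre-treatment one of Z15228 and the week 18 one of Z13076, and ranked 47th by count in the week 12 library of Z15408, without correction for length. In CPM the highest library lay 34.5-fold above the lowest, and the time points overlapped. In Z15228 its log2 CPM differed from pre-treatment by -1.61 at week 12 and by -2.54 at week 18; no other animal went down at both steps. The paired differences averaged -0.45 ± 0.94 at week 12 and -0.80 ± 1.57 at week 18 against pre-treatment, with 3 and 4 of 5 animals lower. Over the 3 same-date animals and the other animals they averaged 0.02 and -1.16 at week 12, and -1.01 and -0.48 at week 18. The -0.48 averages Z15228 at -2.54 and Z13076 at 1.59.

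**Figure D2:**
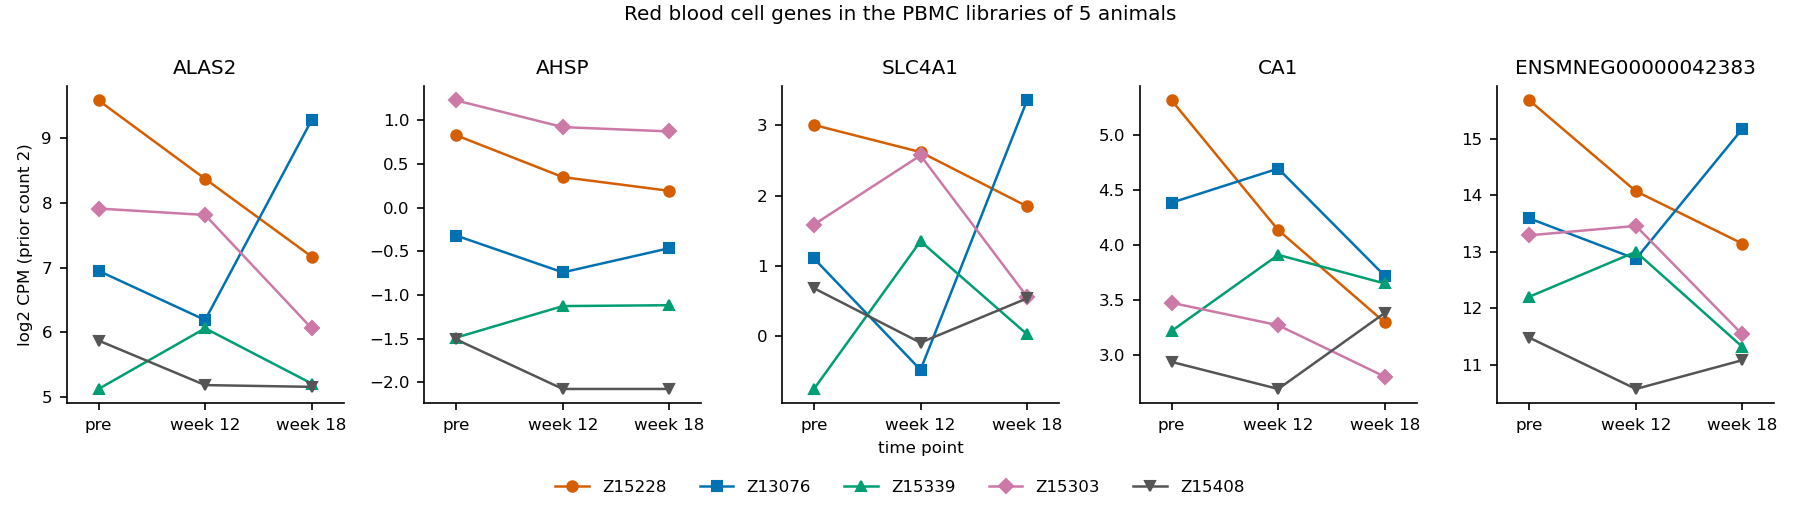
Level of each red blood cell gene (log2 CPM with a prior count of 2, y axes with different ranges) at the 3 time points (x axis), with a line for each of the 5 animals. Z13076 rises at week 18 in *ALAS2*, *SLC4A1* and the unnamed feature but not in *CA1*, and the animals keep their order in *AHSP*.

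None of the 4 tested members passed an adjusted p of 0.05 in any comparison of time points. Across all 12880 features tested with edgeR's quasi-likelihood test and Benjamini-Hochberg adjustment, week 12 against pre-treatment called 0 (0%), with 207 (1.61%) at an unadjusted p under 0.05. Week 18 against pre-treatment called 0 (0%), with 218 (1.69%) at an unadjusted p under 0.05, and week 18 against week 12 called 0 (0%), with 65 (0.505%). No member was among those at an unadjusted p under 0.05 in any of the 3, with or without the animal block described next. With the animal as a block, the same test called 1 feature (0.00776%) at week 12 and 1 (0.00776%) at week 18 against pre-treatment, and 0 (0%) between week 18 and week 12; none was a member. DESeq2's Wald test called 1, 0 and 0 features in the 3 comparisons without the block and 27, 43 and 1 with it, and again none was a member. The comparisons of week 12 and of week 18 with pre-treatment share the pre-treatment libraries.

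The fitted changes of the members had wide intervals. At week 12 against pre-treatment the log2 fold change of *ALAS2* was -0.74 (SE 0.90, 95% interval -2.65 to 1.16), and with the animal block it was -0.36 (SE 0.51, -1.44 to 0.72). The unnamed feature was at -0.85 (SE 0.87, -2.69 to 0.98), or -0.39 (SE 0.48) with the block. *CA1* was at -0.25 (SE 0.43) and *SLC4A1* at 0.06 (SE 0.83). Each interval included 0, and the adjusted p was 1.00 for all 4 without the block. The sign of 3 of them changed without the pre-treatment library of Z15228: the fit without the block gave 0.35 for *ALAS2*, 0.29 for *CA1* and 0.29 for the unnamed feature, and *SLC4A1* went to 0.89 (SE 0.85). With the block and without that library the values were 0.11, 0.22, 0.085 and 0.72 in the same order.

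At week 18 against pre-treatment *CA1* had the lowest p among the members. Its log2 fold change was -0.75 (SE 0.43, 95% interval -1.68 to 0.17, unadjusted p = 0.102), and -0.54 (SE 0.29, -1.16 to 0.07, unadjusted p = 0.078, adjusted p = 0.856) with the block. *ALAS2* was at -0.44 (SE 0.89), the unnamed feature at -0.62 (SE 0.86) and *SLC4A1* at 0.22 (SE 0.83), each with an interval across 0. These values moved with 2 libraries. Without the pre-treatment library of Z15228 *ALAS2* was at 0.65 without the block and 0.019 with it, the unnamed feature at 0.51 and -0.23, and *SLC4A1* at 1.04 and 0.73. Without the week 18 library of Z13076 *ALAS2* was at -1.79 without the block and -1.34 (SE 0.31, adjusted p = 0.147) with it, the unnamed feature at -1.98 and -1.43 (SE 0.36, adjusted p = 0.199), and *SLC4A1* at -0.79 and -0.80. Without both libraries *ALAS2* was at -0.69 and -1.02, the unnamed feature at -0.84 and -1.04, *SLC4A1* at 0.038 and -0.56, and *CA1* at -0.30 and 0.0071. None of these passed the threshold.

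Between week 12 and week 18 the changes were 0.31 (SE 0.90) for *ALAS2*, 0.16 (SE 0.83) for *SLC4A1*, -0.50 (SE 0.44) for *CA1* and 0.24 (SE 0.86) for the unnamed feature. Without the week 18 library of Z13076 they were -1.05 for *ALAS2*, -0.85 for *SLC4A1* and -1.13 for the unnamed feature, each of the opposite sign. With all libraries kept, the animal block gave -0.0167 for *ALAS2* and -0.27 for the unnamed feature, so for these the sign also differed between fits; *SLC4A1* was at 0.09. Within Z13076 alone, from week 12 to week 18, *ALAS2* was 8.49-fold higher, *SLC4A1* 14.3-fold higher and the unnamed feature 4.94-fold higher, while *AHSP* went from 3 to 4 counts and *CA1* was at 0.509 of its week 12 level. These are values of 1 pair of libraries with no replicate.

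**Figure D3:**
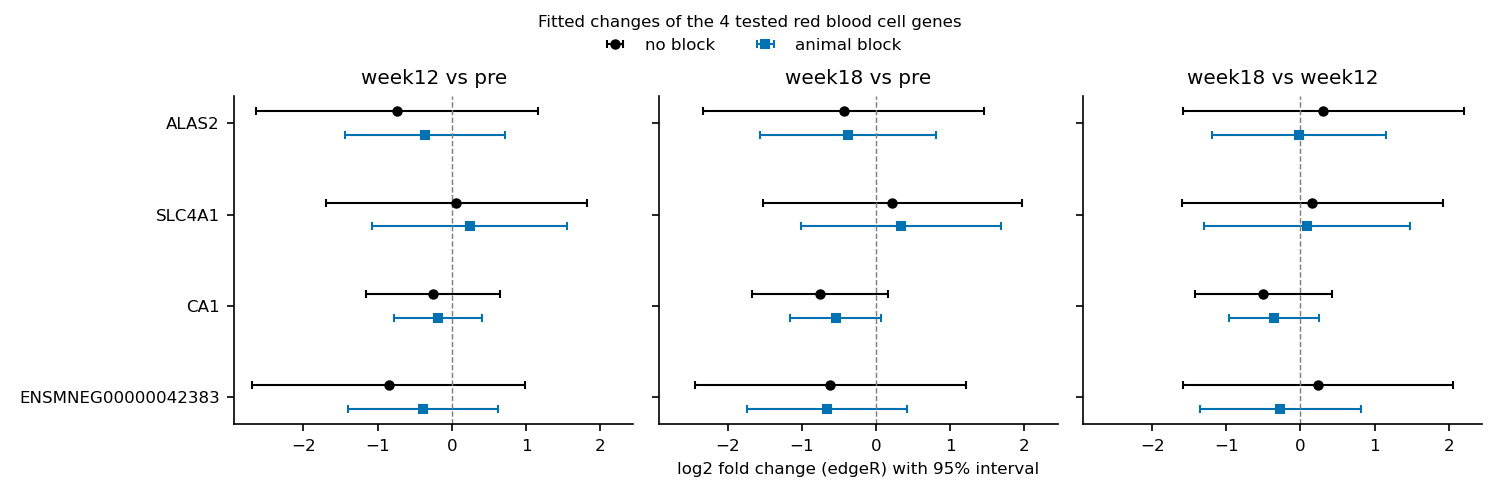
Fitted log2 fold changes (x axis) of the 4 tested members, the unnamed feature among them (y axis), in the 3 comparisons, from edgeR, without (black) and with (blue) the animal as a block. Bars are 95% intervals over the 15 libraries. Every interval includes 0, and those with the block are narrower.

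The members varied more between libraries than most features. The standard deviation of log2 CPM over the 15 libraries was 1.50 for *ALAS2*, 1.48 for the unnamed feature, 1.29 for *SLC4A1* and 1.12 for *AHSP*, above 98.9%, 98.9%, 98.1% and 96.9% of the features tested, whose median was 0.32. That of *CA1* was 0.73, above 89.1%. Counting error adds to the spread of *AHSP*, which had 0 to 19 counts and failed the filter, and of *SLC4A1*, with 3 to 82 counts. How much it adds was not tested. The animal accounted for 96.1% of the sum of squares of *AHSP*, 67.0% of that of the unnamed feature, 64.9% for *ALAS2*, 55.8% for *CA1* and 45.1% for *SLC4A1*, beside a median of 51.9% over all features tested. The time point accounted for 8.97% in *CA1*, 5.20% in the unnamed feature, 2.19% in *ALAS2*, 1.43% in *AHSP* and 0.211% in *SLC4A1*, beside a median of 6.23%.

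*ALAS2*, *SLC4A1* and the unnamed feature ranked the libraries alike, and *CA1* did so least. Spearman's rho with the mean log2 CPM of the 4 named genes was 0.925 for the unnamed feature, which is not in that mean. After each animal's mean was subtracted it was 0.939, and without those 2 high libraries, the pre-treatment one of Z15228 and the week 18 one of Z13076, it was 0.885. For genes that are themselves in the mean it was 0.975 for *ALAS2*, 0.925 for *SLC4A1*, 0.793 for *AHSP* and 0.514 for *CA1*. Between pairs, it was 0.904 for *ALAS2* with the unnamed feature, 0.643 for *CA1* with the unnamed feature, 0.546 for *CA1* with *ALAS2*, 0.371 for *SLC4A1* with *CA1* and 0.236 for *CA1* with *AHSP*. With animal means subtracted, *CA1* had 0.368 with the unnamed feature and 0.193 with *ALAS2*. These are descriptions over 15 libraries of 5 animals, which share animals and library depth, and the rule that chose the members used this likeness.

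Proportions between members also differed by library. *ALAS2* gave 7.37 to 24.0 counts per 1000 counts of the unnamed feature (median 16.4), a 3.26-fold range. *SLC4A1* gave 6.61 to 34.8 counts per 1000 of *ALAS2* (median 18.6), a 5.26-fold range. *CA1* per 1000 *ALAS2* counts ran from 20.9 to 352, a 16.9-fold range, and both ends came from Z13076; in Z15228 it stayed between 51.7 and 66.7. These ratios are not corrected for length and are compared only across libraries.

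**Figure D4:**
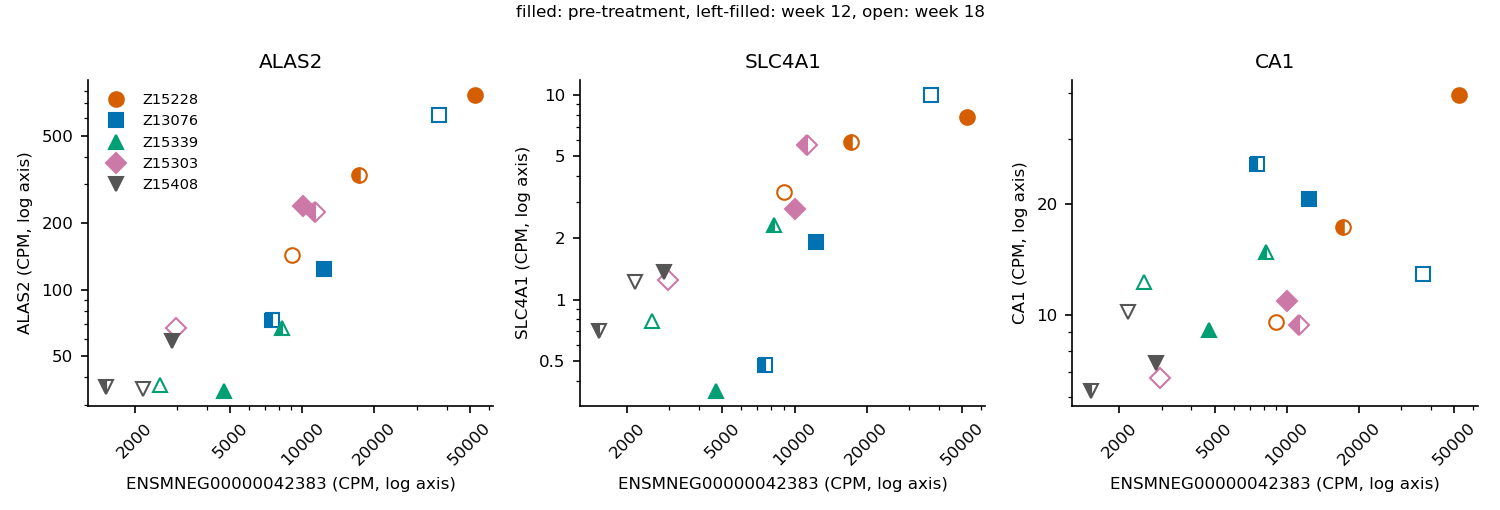
CPM of *ALAS2*, *SLC4A1* and *CA1* (y axes, log scale) against CPM of ENSMNEG00000042383 (x axis, log scale) in the 15 libraries, with a symbol for each animal and a fill for each time point. *ALAS2* and *SLC4A1* rise with the unnamed feature, and *CA1* does so with more scatter (rho 0.643), with the week 18 library of Z13076 at 12.9 CPM.

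The features most like the mean of the 4 named genes included further red cell genes. Of 11 symbols looked up for globins and their chaperone, only 4 were in the count table: *HBM*, *HBQ1*, *HBZ* and *AHSP*. The globins *HBA1*, *HBA2* and *HBB* were thus not measured by name. *HBM*, which encodes the mu globin chain, had a rho of 0.95 and ran from 0.358 to 31.5 CPM, and *EPB42*, which encodes the membrane skeleton protein 4.2, had 0.929 and ran from 0 to 10.5 CPM. *SLC25A39*, a mitochondrial glutathione carrier needed for heme synthesis, had 0.904 (58.7 to 202 CPM). The 10 most alike also included *GSTZ1* (0.900), *MAP3K13* (0.893), *DYNLRB2* (0.886), *MYCL* (0.882), ENSMNEG00000010911 (0.879) and *SCARB1* (0.857). After animal means were subtracted, rho stayed at 0.936 for *EPB42* and 0.886 for *HBM*, and was 0.382 for *DYNLRB2*. *HBM* was at 31.5 CPM in the pre-treatment library of Z15228 and at 5.37 CPM in the week 18 library of Z13076, whereas *EPB42* was at 10.5 and 7.93 CPM.

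Among 107 tested genes of 7 lists of red cell and iron biology (members left out), 12 (11.2%) had a rho above 0.7, beside 161 of 12876 (1.25%) of all features tested; with animal means subtracted, 8 (7.48%) did, beside 96 (0.746%). The list of red cell enzymes had 4 of 17, among them *GPX1*, a glutathione peroxidase, *STRADB* and *HBM*, which the globin list also holds. The reticulocyte maturation list had 3 of 24: *BNIP3L*, the receptor for clearing mitochondria, *HEMGN* and *GLRX5*. Heme synthesis had 2 of 18, *SLC25A39* and *TMEM14C*, and the membrane list had 2 of 23, *EPB42* and *ICAM4*. Hemoglobin and iron clearance had 1 of 9, *HEBP1*, and the erythroid transcription factors and receptor had 0 of 15. *KLF1*, the erythroid Krüppel-like factor of the latter list, reached 0.75 once animal means were subtracted, on only 4 to 19 counts per library. *DMTN* (0.743) and *BPGM* (0.729) also passed 0.7 only then, so the 8 genes are not a subset of the 12. Several of the 12 fell below 0.7 in that measure: *BNIP3L* (0.45), *HEMGN* (0.28), *GLRX5* (0.30), *GPX1* (0.23), *STRADB* (0.50), *HEBP1* (0.31) and *TMEM14C* (0.56). Those that stayed above it included *HBM*, *EPB42*, *SLC25A39* and *ICAM4*. Other genes of these lists did not follow the members: rho was 0.511 for *HBQ1*, the theta globin, 0.189 for *RHAG*, 0.186 for *FECH*, which inserts iron into the heme ring, -0.132 for *TFRC*, the transferrin receptor, -0.15 for *ANK1* and -0.689 for *FOXO3*.

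**Figure D5:**
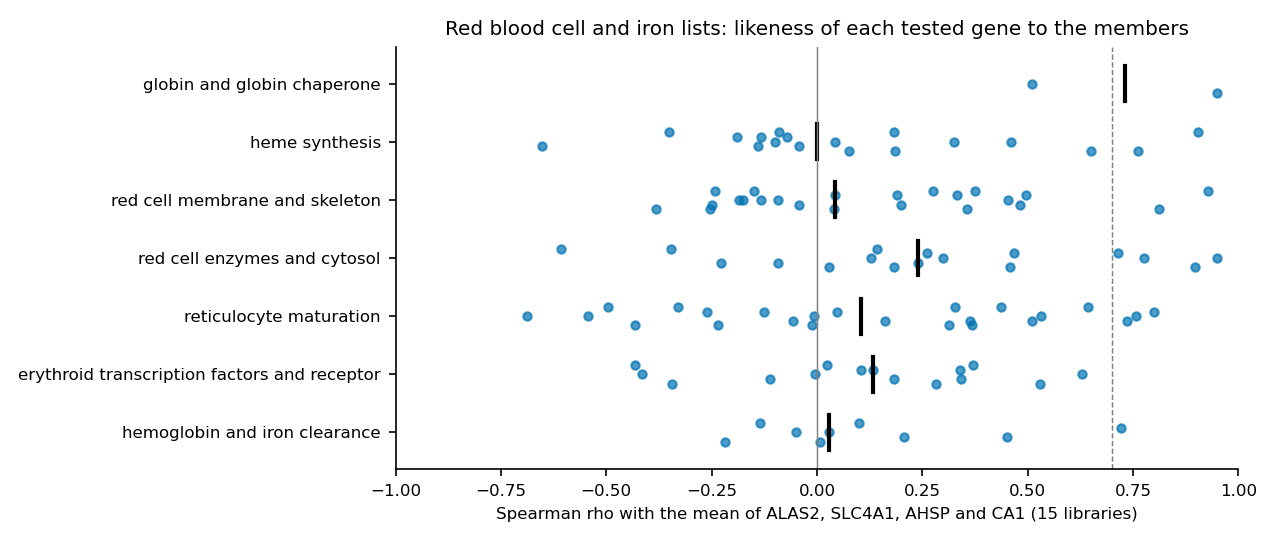
Spearman's rho over 15 libraries with the mean log2 CPM of *ALAS2*, *SLC4A1*, *AHSP* and *CA1* (x axis) for the tested genes of each list (y axis, points), members left out, with list medians as black bars and a dashed line at 0.7. The genes of the red cell lists spread on both sides of 0, with 12 of 107 above 0.7.

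The same 107 genes showed no passing change over time. At week 12 against pre-treatment 53 had a fitted change above 0 and 54 below, at week 18 against pre-treatment 54 and 53, and at week 18 against week 12 64 and 43. The median log2 fold changes were -0.0022, 0.0046 and 0.044, beside 0.0037, 0.00071 and -0.0029 over all features tested. None passed an adjusted p of 0.05 by edgeR's quasi-likelihood test, with or without the animal block. At an unadjusted p under 0.05 without the block there was 1 at week 12, *LMO2*, a bridging factor of the erythroid transcription complex, 0 at week 18 against pre-treatment, and 1 at week 18 against week 12, *SLC11A1*, the iron transporter of macrophages, at 0.35 (SE 0.16). With the block there were 4, 3 and 3, in a background of 604 (4.69%), 754 (5.85%) and 279 (2.17%) of all features tested. Of the highest-expressed genes of these lists, *HBM* was at -0.89 (SE 0.97) at week 12 and -1.51 (SE 1.00) at week 18 against pre-treatment, or -0.16 (SE 0.58) and -0.72 (SE 0.60) with the animal block. Without the block *HBQ1* was at 0.22 (SE 0.45) and 0.54 (SE 0.45), *GPX1* at 0.09 (SE 0.26) and 0.34 (SE 0.26), and *FTL*, the ferritin light chain, at 0.15 (SE 0.20) and 0.24 (SE 0.20). The other 16, which include *BSG*, *ADD1*, *TPM3*, *HK1* and *NFE2*, lay between -0.16 and 0.27 at week 12 and between -0.105 and 0.222 at week 18 against pre-treatment, with SEs of 0.085 to 0.284.

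Marker lists of other blood cells were read beside the high libraries. The 19 platelet markers summed to 5902 to 12817 CPM before treatment, 5131 to 15146 at week 12 and 4866 to 18503 at week 18, and were highest in Z15303 each time. The summed share of the members was highest in Z15228 before treatment and at week 12, and in Z13076 at week 18. *AHSP* was highest in Z15303 each time. Of these 19 genes 0 had a rho above 0.7 with the members' mean, as did 0 of 12 monocyte, 0 of 10 B cell, 0 of 14 T cell and 0 of 9 NK cell markers, against 1 of 21 granulocyte and 1 of 6 progenitor markers. The median rho was 0.361 for the granulocyte, 0.204 for the platelet, 0.180 for the monocyte and 0.164 for the B cell markers. These lie above the 0.129 of the 107 red cell and iron genes. With animal means subtracted 2 of the 21 granulocyte markers (9.52%) were above 0.7, beside 0.746% of all features tested. The B cell sum was highest in Z15228 and lowest in Z13076 at every time point, with 1099 and 275 CPM before treatment, 562 and 165 at week 12, and 467 and 210.0 at week 18. The week 18 library of Z13076 had the highest granulocyte sum (2086 CPM, range from 1123) and monocyte sum (5994 CPM, range from 3377) of its time point; in the pre-treatment library of Z15228 these were 1397 and 3834 CPM, in ranges of 742 to 1494 and 2977 to 5055. The part of these cells in the levels of the red blood cell genes was not tested.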

How the data were processed

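PBMC RNA had been made into libraries with a SMART-Seq v4 and Nextera XT workflow. Per the study's methods and the submitters' processing notes, the authors aligned reads with STAR (version 2.7.9a), counted reads per gene in STAR against the Ensembl *Macaca nemestrina* annotation, and tested with DESeq2; they deposited raw counts, not normalized. Here each library was assigned to its time point and animal from its label. Counts were tested with edgeR (4.0.16) in R (4.3.3): TMM factors, filterByExpr with a minimum count of 10, and the quasi-likelihood test on time point over all 15 libraries, with Benjamini-Hochberg adjustment over 12880 features and a threshold of 0.05. SE was the fold change over the square root of F. CPM used the TMM-scaled counts of tested features, and log2 CPM a prior count of 2. Shares used all gene counts. The fitting steps were tested on simulated data with the same spread setting for all features and no differences between animals. That run does not show what could be detected for the members.

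The animal as a block was the other fit, since the same animals gave each time point; deviations from time-point means correlated at a mean of 0.551 (0.351 to 0.683) over 15 same-animal pairs and -0.137 over 60 pairs of different animals and times. DESeq2 (1.42.0), limma-voom (limma 3.58.1), other filters and scaling, and leaving out animals or libraries were alternatives. The members and gene lists were chosen with earlier results of these data known. Genes named were the members, the 10 features most like the mean of the named members, and the 3 highest-expressed tested genes of each red cell list (some given by their range, and some not reported here); other list genes named were chosen after their values were seen. Strand use in counting is not given in the sources used here. Sampling dates in the labels put week 12 at 56 or 57 days and week 18 at 84 days after the pre-treatment date. This differs from the week labels. The figure legends of the paper also differ on the week of the last sample. The labels were used. Sequences of the members were not used here.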

Additional observations from a re-analysis of the deposited data

Results flagged for a closer look

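On the linear CPM or percent scale, in 7 of 18 groups of 5 libraries the highest library lay farther from the next than Dixon's 95% criterion allows (gap over range above 0.71); chance gives about 1 in 20 such groups where values are normal on the scale used, and the 7 come from only 2 libraries and are not independent. In the pre-treatment library of Z15228, *ALAS2* was at 765 CPM (next highest 241), ENSMNEG00000042383 at 52454 CPM (next 12329) and the 5 members summed at 5.00% of counts (next 1.22%). In the week 18 library of Z13076, *ALAS2* was at 620.2 CPM (next 144), *SLC4A1* at 10.01 CPM (next 3.37), ENSMNEG00000042383 at 37036 CPM (next 9039) and the summed share was 3.68% (next 0.930%). On the log2 scale, a choice made after seeing the data, 0 of the 18 groups passed, and the same 7 gaps were 0.375 to 0.515 of the range. *CA1* and *AHSP* did not stand apart in either library by this criterion.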

How the results depend on the processing

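None of 312 member values (4 members in 3 comparisons, under the reported setting and 25 others) passed the threshold; the smallest adjusted p was 0.104, for *ALAS2* at week 18 against pre-treatment with the animal block and without Z13076 (log2 fold change -1.30). Of 300 alternative values of the members, 236 kept their direction and 64 did not, 12 of these among the 108 that left out no animal or library; limma-voom and leaving out single libraries were chosen after seeing the data. With the animal block, week 18 against week 12 became -0.0167 for *ALAS2* and -0.27 for the unnamed feature, and 1 feature was called at each of week 12 and week 18 against pre-treatment. DESeq2 with the block gave -0.0501 for *ALAS2*, -0.0889 for *SLC4A1* and -0.27 for the unnamed feature in week 18 against week 12, and called 27, 43 and 1 features; without the block it called 1 at week 12. limma-voom gave -0.0666 for *SLC4A1* at week 12 against pre-treatment, and -0.14 for *ALAS2* and -0.36 for the unnamed feature in week 18 against week 12; with the block it gave -0.21 and -0.15 for *SLC4A1* at week 12 and week 18 against pre-treatment, -0.11 for *ALAS2* and -0.37 for the unnamed feature in week 18 against week 12, and called 1 feature in each comparison with pre-treatment. Leaving out animals or libraries, with or without the block, gave 0 to 6 called features at week 12 and 0 to 17 at week 18 against pre-treatment. *ALAS2* then ran from -0.94 to 0.35, -1.96 to 0.73 and -1.22 to 0.93 in the 3 comparisons. The unnamed feature ran from -1.06 to 0.29, -2.07 to 0.58 and -1.19 to 0.65. *SLC4A1* ran from -0.27 to 0.89, -0.90 to 1.04 and -1.13 to 0.68. *CA1* ran from -0.49 to 0.29, -0.98 to 0.0071 and -0.69 to -0.17, with its sign kept in the last comparison. Without the unnamed feature the median summed share at week 12 was 0.00995%. For *AHSP*, a fit without the low-count filter gave -0.51 (SE 0.94), -0.53 (SE 0.95) and -0.02 (SE 0.98). The cause of these shifts was not tested. The low counts of *AHSP* and *SLC4A1* limit what could be detected. Promoters and proteins were not compared, since no sequences were used.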

Other observations

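*RHAG*, which encodes the Rh-associated glycoprotein of the red cell membrane and was chosen after its values were seen, was highest in Z15303, at 44.2, 66.1 and 91.3 CPM at pre-treatment, week 12 and week 18. The member *AHSP* was also highest in Z15303 each time, and Z15303 was the animal with the highest platelet marker sums.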
